A study of Homo sapiens with 6 samples.

Results

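Transcripts of CDK inhibitors, the small proteins that hold cyclin-dependent kinases in check, were followed in cultured human cells with and without a low dose of a topoisomerase 1 inhibitor. The genes were taken by name, CDKN1A, CDKN1B, CDKN1C, CDKN2C and CDKN2D, and 4 of these 5 had a row among the 13696 genes of the deposited table. CDKN1C was not listed. The 4 listed genes were all among the 13616 genes tested. The cells were hTERT RPE-1, a line of retinal pigment epithelial cells immortalised with telomerase, grown in serum-containing medium. One group of 3 libraries came from untreated cells. The other group of 3 came from cells given a pre-dose of 25 nM camptothecin for 1 h and harvested 24 h after the drug had been removed. Camptothecin traps topoisomerase 1 on DNA. All 6 libraries came from the same line, and the labels do not say whether the replicates were separate cultures, so a p-value here speaks only of the spread over these libraries, which may be technical. In bulk RNA, fewer cells with a transcript and less of it per cell cannot be told apart.

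CDK inhibitors fall into a pair of families. CIP/KIP proteins (p21, p27 and p57, encoded by CDKN1A, CDKN1B and CDKN1C) bind cyclin-CDK complexes of several kinds, whereas INK4 proteins, among them p18 and p19 (encoded by CDKN2C and CDKN2D), bind CDK4 and CDK6 and keep D-type cyclins from joining them. Less CDK activity leaves RB and its relatives unphosphorylated, and these then hold E2F and DREAM target genes down. CDKN1A is a classical gene induced after DNA damage, while p27 is governed to a large extent by its breakdown, and p18 and p19 transcripts are known to vary over the cell cycle.

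Totals implied by the lowest deposited values were 26336941 to 31780391 reads per library. Levels are given in CPM, the reads of a gene scaled to the same total in each library. Both replicate 1 libraries stood apart from the other 4: on the first principal component, with 59.4% of the variance, they lay at -20.6 and -18.0, and the others between 6.94 and 16.4. Values are therefore also given within each replicate number. Of 14 markers of retinal pigment epithelium, 6 were listed (BEST1, MITF, OTX2, RDH5, KRT8 and KRT18), and RPE65, RLBP1, TYR, TYRP1, PMEL, LRAT, TTR and SERPINF1 were not. Their summed level was 1380 to 1520 CPM in untreated and 1380 to 1420 CPM in pre-dose libraries, most of it keratin. Markers of blood cells, endothelium and keratinocytes were not listed. Of 5 fibroblast markers, COL1A1 and PDGFRB were listed, with summed levels of 292 to 603 CPM in untreated and 260 to 498 CPM in pre-dose libraries. The lowest sum of each group was in replicate 1, and the part of this in the differences of the inhibitors was not tested.

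CDKN1A was the inhibitor whose level differed most between the groups. It was higher after the pre-dose within each replicate number, by 1.34-fold, 2.50-fold and 2.02-fold in replicates 1, 2 and 3, and in limma over all genes it did not pass. The level in untreated replicates 1, 2 and 3 was 161.8, 228.9 and 232.9 CPM. In the pre-dose libraries it was 216.7, 573.5 and 472.1 CPM. Pre-dose replicates 2 and 3 lay far above every untreated library, and pre-dose replicate 1 lay between untreated replicate 1 and the other untreated libraries, so the groups overlapped. The overlap held for all 4 listed inhibitors, as it did for most genes: only 6.55% of all genes tested had groups that did not overlap. The group means of CDKN1A were 208 ± 39.9 CPM without and 421 ± 184 CPM with the pre-dose (SD, n = 3 each).

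**Figure D1:**
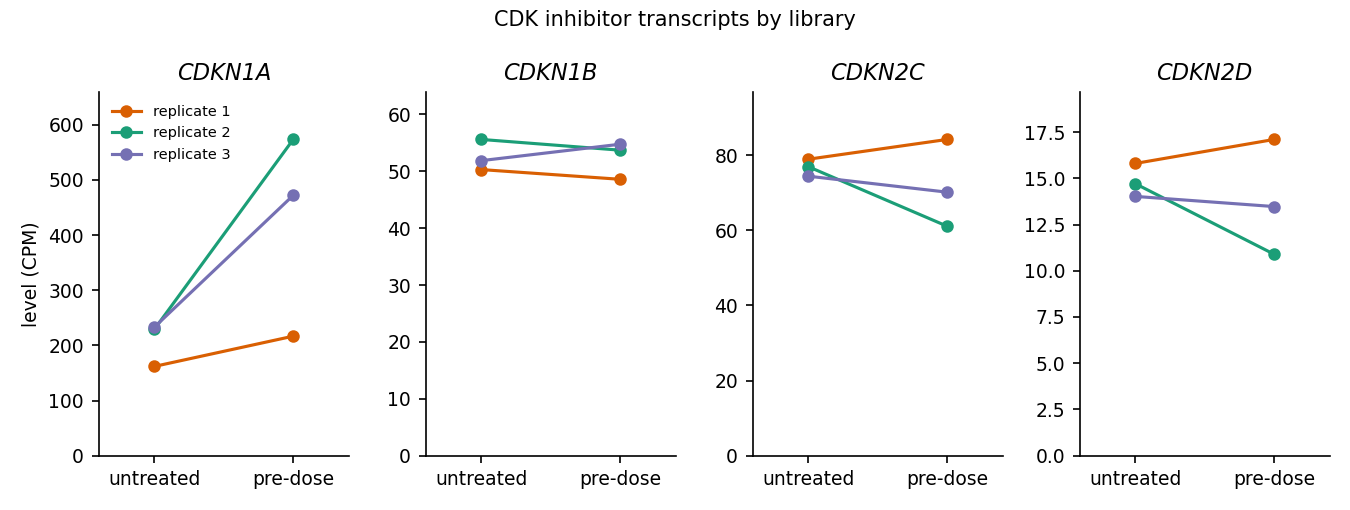
Level of CDKN1A, CDKN1B, CDKN2C and CDKN2D in CPM (vertical axes from 0, 1 scale per gene) in untreated and pre-dose libraries, with a line joining the libraries of the same replicate number. CDKN1A is higher at the pre-dose end of all 3 lines, and its replicate 1 line ends at 216.7 CPM, below untreated replicates 2 and 3, whereas CDKN2C and CDKN2D go up along the replicate 1 line and down along the others.

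The difference of CDKN1A in limma was 0.92 on the log2(CPM + 1) scale (SE 0.34), a 1.89-fold ratio with a 95% interval of 1.08 to 3.31. Its unadjusted p was 0.0311 and its adjusted p 1.00, and limma called 0 of the 13616 genes (0.0%) at an adjusted p of 0.05, against 280 (2.06%) at an unadjusted p under 0.05. CDKN1A held rank 8 of all genes tested by the size of its difference and rank 137 by its p. With the replicate number as a block its interval narrowed to 1.53-fold to 2.34-fold, and its adjusted p in limma was 0.161, where 0 genes passed and 10.6% had an unadjusted p under 0.05. In the authors' deposited table the log2 difference was 1.06, with limits of 0.74 and 1.38 and an adjusted p of 0.0254. That table called 418 of 13696 genes (3.05%), and CDKN1A was the 1 member among them. In replicates 2 and 3 alone the limma difference was 1.17 (adjusted p = 2.27e-05), where 866 genes (6.36%) passed, again with CDKN1A as the 1 member. Voom with library quality weights, which gave the replicate 1 libraries the lowest weights (0.23 and 0.199, against 1.26 to 2.86), had 1.08 (adjusted p = 0.0374) and called 108 genes (0.793%), CDKN1A alone among the members. CDKN1A thus passed in the fits that left out or gave low weight to both replicate 1 libraries and in the authors' deposited table. It did not pass in the fits that gave all 6 libraries equal weight. Nor did it pass in limma with only untreated replicate 1 (adjusted p = 0.979) or only pre-dose replicate 1 (adjusted p = 0.249) left out.

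Replicate 1 differed from the others already without drug. Untreated replicate 1 had 161.8 CPM of CDKN1A, and the mean of untreated replicates 2 and 3 was 1.43-fold higher. The estimated reads of CDKN1A numbered 4767 to 17297 per library, so that counting alone would give a coefficient of variation of 0.76 to 1.4%, whereas the replicates varied by 19.2% in untreated and 43.7% in pre-dose libraries.

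CDKN1A lies on chromosome 6 from 36676460 to 36687339 on the plus strand (GRCh38, GENCODE release 29). Exons of DINOL, a noncoding RNA of the opposite strand from 36677609 to 36678559, overlap CDKN1A exons. The strand setting of the counting is not given in the sources used here, DINOL had no row, and reads of the shared stretch cannot be told apart. Of the 5 other tested genes within 250 kb of CDKN1A, 0 had an unadjusted p under 0.05 in limma, where 2.06% of all genes tested had. The log2 differences of these 5 ran from -0.20 to 0.03. KCTD20 and STK38, chosen after their values were seen, were lower in the authors' deposited table (adjusted p = 0.0327 and 0.0375), where 1.45% of all genes were. With 5 genes, these counts do not show whether the surroundings of CDKN1A differed from other genes.

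The 120 bases before the transcription start of CDKN1A are shown beside those of CDKN1B and CDKN2D, to set the promoter of the inhibitor with the largest difference against those of others. The sequences are from RefSeq (GRCh38.p14), 5′ to 3′ on the strand of the gene, with GC boxes (GGGCGG or its complement CCGCCC) in capitals. Positions are chr6:36678594-36678713 (plus strand), chr12:12717248-12717367 (plus strand) and chr19:10568980-10569099 (minus strand).
CDKN1A: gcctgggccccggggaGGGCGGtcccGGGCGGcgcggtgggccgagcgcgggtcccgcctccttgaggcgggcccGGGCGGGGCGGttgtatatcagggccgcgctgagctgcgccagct
CDKN1B: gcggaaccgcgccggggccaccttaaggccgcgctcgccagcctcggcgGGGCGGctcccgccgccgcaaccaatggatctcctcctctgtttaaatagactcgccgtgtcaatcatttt
CDKN2D: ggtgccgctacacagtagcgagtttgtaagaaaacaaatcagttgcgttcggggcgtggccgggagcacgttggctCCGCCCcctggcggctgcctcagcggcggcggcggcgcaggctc
The stretch of CDKN1A had 4 GC boxes, of which the last pair overlap, and 80.8% G and C. The CDKN1B stretch had 1 GC box and 65.0% G and C, and the CDKN2D stretch 1 GC box and 67.5%. Over the whole window of 300 bases (250 before and 50 after the start) CDKN2D had 3 GC boxes, CDKN1A 4 and CDKN1B 1, and 45.0% of all 35116 promoter windows held at least 1. The CHR element TTTGAA (complement TTCAAA), known from cell cycle genes, was in 0 of the 3 windows and in 15.2% of all. For CDKN2C, RefSeq gives 3 starts, and gene-level values do not tell which was used. In GENCODE the genes of CDKN1A, CDKN1B and CDKN2D begin upstream of the starts used here, at 36676460, 12715058 and 10569059. Gene-level values do not tell which start was used for these genes either. These counts of letters describe the windows and show no binding.

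CDKN1B, which encodes p27, had the smallest difference of the 4. Its level was 50.31, 55.61 and 51.88 CPM in untreated replicates 1, 2 and 3 and 48.60, 53.72 and 54.77 CPM in pre-dose libraries. The groups overlapped throughout. The log2 difference was -0.01 (SE 0.07), a ratio of 0.995 with a 95% interval of 0.885 to 1.12 (limma, adjusted p = 1.00). A change of more than 1.12-fold upward lay outside that interval. Its sign differed among the replicate pairs, with -0.05, -0.05 and 0.08 on the log2 scale. The replicates varied by 5.17 and 6.30%, with counting alone giving 2.5 to 2.6%. CDKN1B lies on chromosome 12 from 12715058 to 12722371. An intronic transcript of the same strand, AC008115.3, lies inside it and was not listed.

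CDKN1C, which encodes p57, lies on chromosome 11 from 2883213 to 2885773 and was not listed, so it gave no value. The filter that formed the table is not given in the sources used here.

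CDKN2C, which encodes p18, had 78.92, 76.95 and 74.41 CPM in untreated replicates 1, 2 and 3. In pre-dose libraries it had 84.19, 61.08 and 70.15 CPM. The highest of all 6 libraries was pre-dose replicate 1 and the lowest were pre-dose replicates 2 and 3, so the pre-dose libraries enclosed the untreated ones. The log2 difference was -0.11 (SE 0.11) over all libraries and 0.09, -0.33 and -0.08 in the replicate 1, 2 and 3 pairs. In limma it did not pass (ratio 0.929, 95% interval 0.774 to 1.11, adjusted p = 1.00), nor in the authors' deposited table (adjusted p = 0.221). In replicates 2 and 3 alone the log2 difference was -0.21 (adjusted p = 0.0659 in limma). In voom with library quality weights it was -0.16 (adjusted p = 0.214). The spread was 2.94% among untreated and 16.2% among pre-dose libraries, with 1.9 to 2.3% from counting. CDKN2C lies on chromosome 1 from 50960745 to 50974633.

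CDKN2D, which encodes p19, had the fewest reads, 328 to 543 per library. Its level was 15.80, 14.71 and 14.02 CPM in untreated replicates 1, 2 and 3 and 17.10, 10.89 and 13.47 CPM in pre-dose libraries. Pre-dose replicate 1 was again the highest library and pre-dose replicate 2 the lowest. The log2 difference was -0.12 (SE 0.15), and 0.11, -0.40 and -0.05 in the replicate pairs. In limma it did not pass (ratio 0.923, 95% interval 0.723 to 1.18, adjusted p = 1.00), nor in the authors' deposited table (adjusted p = 0.404) or in replicates 2 and 3 alone (log2 difference -0.23, adjusted p = 0.209). Counting alone would give a variation of 4.3 to 5.5%, close to the 6.04% among untreated and below the 22.6% among pre-dose libraries. CDKN2D lies on chromosome 19 from 10566462 to 10569059.

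**Figure D2:**
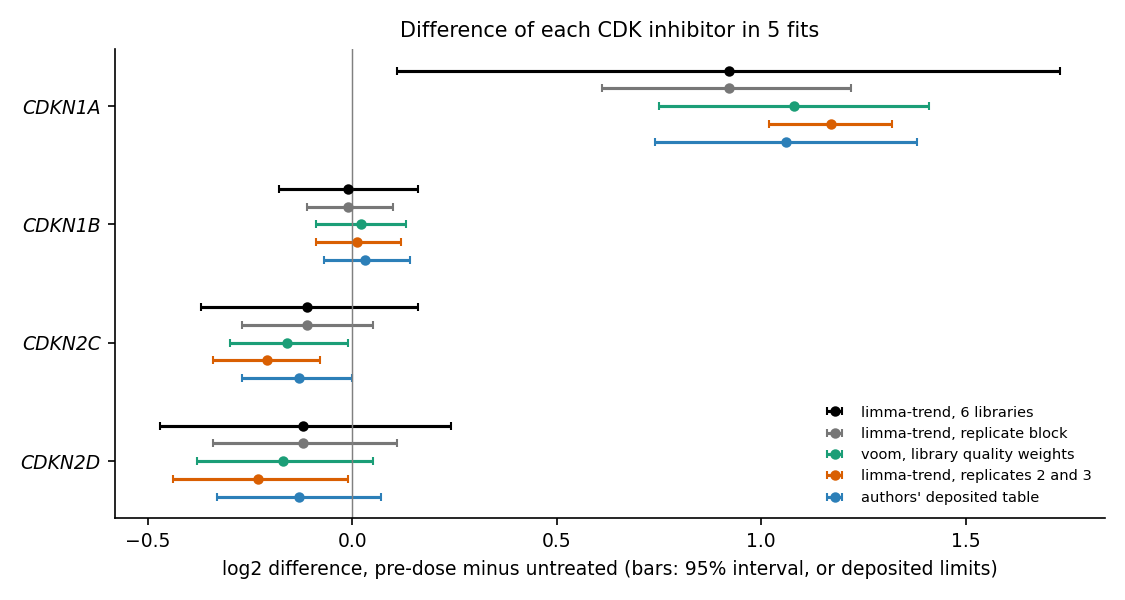
Log2 difference, pre-dose minus untreated (horizontal axis), of the 4 listed inhibitors in 5 fits. Of these, 1 is to the 4 libraries of replicates 2 and 3, and 1 is that of the authors' deposited table, whose design is not given. The others are to all 6 libraries. Bars are 95% intervals (for the authors' deposited table, its own limits). The CDKN1A points lie between 0.92 and 1.17 with every bar above 0, and the CDKN1B points between -0.01 and 0.03 with every bar across 0.

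Set per kilobase of exon, so that genes of different length can be compared, CDKN1A was the most abundant inhibitor in every library. Without drug its level was 68.1 ± 13.1 CPM per kb (SD, n = 3), that of CDKN2C 23.1 ± 0.681, that of CDKN1B 18.7 ± 0.968 and that of CDKN2D 9.88 ± 0.596. Each step of this order was wider than the spread, as no library of one gene overlapped those of the next. After the pre-dose CDKN1A stood at 138 ± 60.3 CPM per kb (SD, n = 3). CDKN2C then had 21.6 ± 3.51 and CDKN1B 18.6 ± 1.17, and their libraries overlapped: in pre-dose replicate 2 CDKN1B, at 19.11 CPM per kb, lay above CDKN2C at 18.41. CDKN2D stayed the lowest with 9.20 ± 2.08. Among 13550 tested genes with a known exon length, CDKN1A ranked between the 94.8th and 98.9th percentile by level per kb, CDKN2C between 84.5 and 88.1, CDKN1B between 82.5 and 85.2 and CDKN2D between 62.8 and 73.9.

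CDKN1A held a higher share of the inhibitor transcripts after the pre-dose in each pair. Of the summed CPM of the 4 genes it held 52.73, 60.85 and 62.40% in untreated replicates 1, 2 and 3 and 59.11, 82.02 and 77.33% in pre-dose libraries. Both pre-dose replicates 2 and 3 were above all untreated libraries and pre-dose replicate 1 was not. The mean share was 58.7 ± 5.19% without and 72.8 ± 12.1% with the pre-dose (SD, n = 3 each), with a two-sided exact permutation p of 0.3, where 3 libraries against 3 allow no p under 0.1. Within pairs the share was higher by 6.38, 21.17 and 14.93 percentage points, and an exact sign-flip test over the 3 pairs gave a p of 0.25, the smallest it can give. The other 3 inhibitors together had 144 ± 3.55 CPM without and 138 ± 12.1 CPM with the pre-dose (SD, n = 3 each, two-sided exact permutation p = 0.6).

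**Figure D3:**
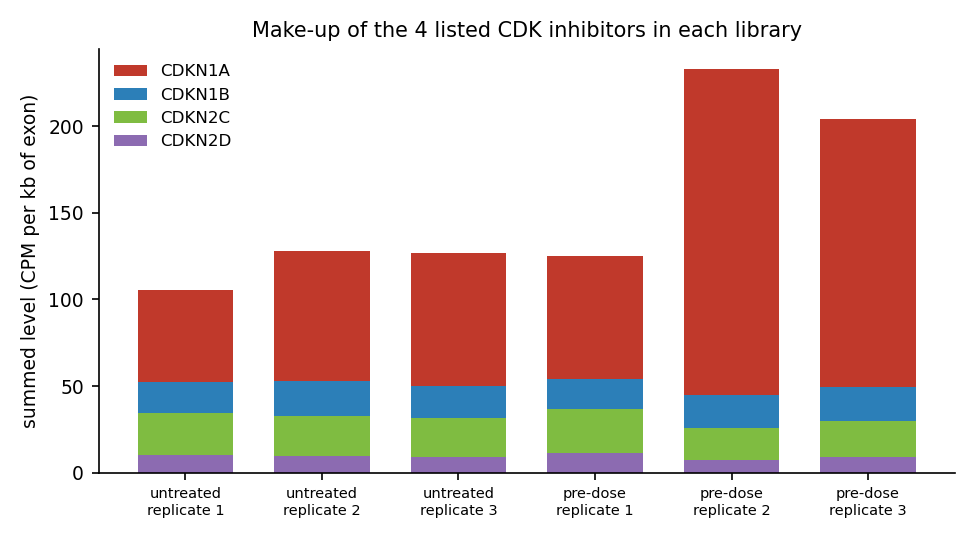
Summed level of the 4 listed inhibitors in CPM per kb of exon (vertical axis) in each library, with 1 coloured block per gene. The block of CDKN1A reaches 188.0 and 154.8 CPM per kb in pre-dose replicates 2 and 3 and lies between 53.04 and 76.35 in the other 4 libraries. The other 3 blocks together vary far less than that of CDKN1A and are lowest in pre-dose replicate 2.

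Ratios within a library, which do not depend on the library total, were also higher for CDKN1A after the pre-dose. CDKN1A had 3.22, 4.12 and 4.49 times the CPM of CDKN1B in untreated replicates 1, 2 and 3, and 4.46, 10.67 and 8.62 times in pre-dose libraries. Against CDKN2C the ratio was 2.05, 2.97 and 3.13 in untreated and 2.57, 9.39 and 6.73 in pre-dose libraries. The ratios to CDKN2D ran from 10.24 to 16.61 in untreated libraries and were 12.67, 52.66 and 35.04 after the pre-dose. On the log2 scale the mean ratio was higher by 0.93 against CDKN1B, by 1.03 against CDKN2C and by 1.05 against CDKN2D, and within each of the 3 pairs it was higher. The 4 ratios computed, these 3 and that to the summed others, had two-sided exact permutation p values of 0.2 or 0.3, and 0.3 each when adjusted by Benjamini-Hochberg. With 3 libraries per group these tests could not reach a p of 0.05 whatever the values, so they do not show whether CDKN1A differed by more than the other inhibitors.

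Of the cyclins, kinases and PCNA that the inhibitors bind, 11 of 12 were listed and 0 passed in limma. Their median log2 difference was -0.13, against -0.001 over all genes tested. CDK2, the partner of cyclins E and A, stood at 65.94 ± 3.835 CPM without and 57.17 ± 13.03 CPM with the pre-dose (SD, n = 3 each). Its log2 differences in the replicate 1, 2 and 3 pairs were 0.05, -0.45 and -0.27, with an unadjusted p of 0.168 in limma. It was the 1 gene of the list that the authors' deposited table called, as lower (adjusted p = 0.0467), where 1.45% of all genes were. CDK1 had log2 differences of 0.22, -0.50 and -0.25 in the 3 pairs and CCNA2, which encodes cyclin A2, 0.25, -0.55 and -0.35. On the side of the D-type cyclins, which INK4 proteins oppose, CCND1 differed by 0.03, CDK4 by -0.07 and CDK6 by -0.03 on the log2 scale. In replicates 2 and 3 alone 4 of the 11 passed, all lower, where 3.47% of all genes tested were lower and 2.89% higher.

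The RB family, E2F factors and DREAM subunits had 19 of 19 genes tested, 0 past the threshold in limma and a median log2 difference of -0.07. LIN9, a DREAM and MuvB subunit, went from 5.40 ± 0.701 to 4.07 ± 0.871 CPM (SD, n = 3 each), with pair differences of 0.06, -0.71 and -0.39, and was called lower by the authors' deposited table (adjusted p = 0.0388). MYBL2, the B-MYB factor that takes over MuvB for mitotic transcription, was lower in all 3 pairs, with differences of -0.25, -0.47 and -0.26. Of the 19 genes, 6 were lower in all 3 pairs, where 16.3% of all genes tested were. Higher in all 3 was 1, where 15.6% of all genes were. E2F6, a repressor of the family, differed by -0.11. In replicates 2 and 3 alone 3 of the 19 passed, all lower, where 3.47% of all genes tested were.

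Ligase and proteasome parts that break down p21, p27 and p57 also had 0 of 17 past the threshold in limma, where 0.0% of all genes passed. Their median log2 difference was -0.03. The authors' deposited table called none of the 17 either, where it called 3.05% of all genes. At these shares, counts of 0 among 17 genes do not set the list apart from other genes. With replicate 1 left out 1 passed as higher and 2 as lower, where 2.89% of all genes tested were higher and 3.47% lower. SKP2, the F-box protein that targets p27, had 18.94 ± 0.7646 CPM without and 17.21 ± 0.2998 CPM with the pre-dose (SD, n = 3 each), with pair differences of -0.07, -0.12 and -0.20. RNF123, a ligase for p27, differed by 0.10 and DDB1, the adaptor of cullin 4 ligases that act on p21, by 0.08. Protein levels were not measured.

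Among transcription factors known to act on the inhibitor genes and their regulators, 28 of 31 were listed, 0 passed in limma and the median was 0.00. MDM2, a ubiquitin ligase whose gene is known to be induced by DNA damage, had pair differences of 0.20, 0.71 and 0.59 (adjusted p = 0.0254 in the authors' deposited table). KLF6, a factor known to act on the CDKN1A promoter, differed by -0.21 (unadjusted p = 0.0360, adjusted p = 1.00 in limma). KLF10, a TGF-beta-induced factor, was lower in the authors' deposited table (adjusted p = 0.0427). With replicate 1 left out, 1 gene of the list passed as higher and 3 as lower, where 2.89% of all genes tested were higher and 3.47% lower.

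Other genes taken to limit or oppose CDKs had a median log2 difference of -0.11, and 0 passed in limma. Of 8 genes, 0 were higher in all 3 pairs, where 15.6% of all genes were, and 3 were lower in all 3, where 16.3% were. CDK2AP2, a CDK2-associated protein, had 48.8 ± 1.57 CPM without and 43.2 ± 2.81 CPM with the pre-dose (SD, n = 3 each) and was lower in the authors' deposited table (adjusted p = 0.0459). WEE1, the kinase that blocks CDK1, differed by -0.12, and PPP1CA, a catalytic subunit of protein phosphatase 1, by -0.10. Without replicate 1, 2 of the 8 passed, both lower, where 3.47% of all genes tested were.

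Other genes known to be induced by DNA damage were mostly higher after the pre-dose, with the smallest differences in replicate 1, as for CDKN1A. Of 24 listed among 25, 22 were higher in all 3 pairs, where 15.6% of all genes tested were. Lower in all 3 were 0 of them, where 16.3% of all genes were. The median log2 difference of the list was 0.36. In the pairs of replicates 1, 2 and 3 the medians were 0.19, 0.56 and 0.40, and CDKN1A differed by 0.42, 1.32 and 1.02. In limma 0 passed and 13 had an unadjusted p under 0.05, all higher, where 1.25% of all genes tested were. Of the 24, 9 had pre-dose libraries all above the untreated ones (3.36% of all genes tested), and 15 were higher by the authors' deposited table (1.61%). Without replicate 1, 20 passed, all higher (2.89%). CYFIP2, which encodes a subunit of the WAVE complex, PHLDA3, an AKT inhibitor, and FDXR, a mitochondrial reductase, had the smallest p of the list in limma. CYFIP2 went from 13.2 ± 2.94 to 27.3 ± 5.73 CPM, PHLDA3 from 80.6 ± 5.28 to 101 ± 5.00 CPM and FDXR from 14.4 ± 0.698 to 26.1 ± 7.02 CPM (SD, n = 3 each). The list was chosen with earlier results of these libraries known, so it is no independent evidence of its direction. Its mean log2(CPM + 1) was 4.39, 4.54 and 4.54 in untreated replicates 1, 2 and 3 and 4.58, 5.17 and 5.00 in pre-dose libraries. As with CDKN1A, pre-dose replicates 2 and 3 were the highest and untreated replicate 1 the lowest.

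CDKN2C and CDKN2D had the same order over the libraries as the mean of the genes of G2 and mitosis, which are known to be repressed through p21 and DREAM. All 20 listed genes were higher in the replicate 1 pair and 0 were higher in the other pairs, with median differences of 0.21, -0.50 and -0.34. Over all genes tested the medians of the pairs were -0.004, -0.002 and 0.001. This list too was chosen with earlier results of these libraries known. The list mean was 6.64, 6.57 and 6.56 in untreated replicates 1, 2 and 3 and 6.84, 6.09 and 6.23 on the log2 scale in pre-dose libraries. Ordered from highest to lowest, the libraries came in the same sequence for this mean, for CDKN2C and for CDKN2D: pre-dose replicate 1, untreated replicates 1, 2 and 3, then pre-dose replicates 3 and 2. Over the 6 libraries the Pearson r with the list mean was 0.97 for CDKN2C, 0.94 for CDKN2D, -0.69 for CDKN1B and -0.91 for CDKN1A. These describe 6 libraries that share their totals and the offset of replicate 1. In limma 0 of the 20 passed, in replicates 2 and 3 alone 20 did, all lower (3.47% of all genes tested were), and 6 were lower by the authors' deposited table, where 1.45% of all genes were. BUB1B (adjusted p = 0.0254) and CENPA (0.0295), a spindle checkpoint kinase and the centromeric histone, were among those 6. CDK1, CCNB1, CDC20 and MDM2 each stood in a pair of these lists.

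**Figure D4:**
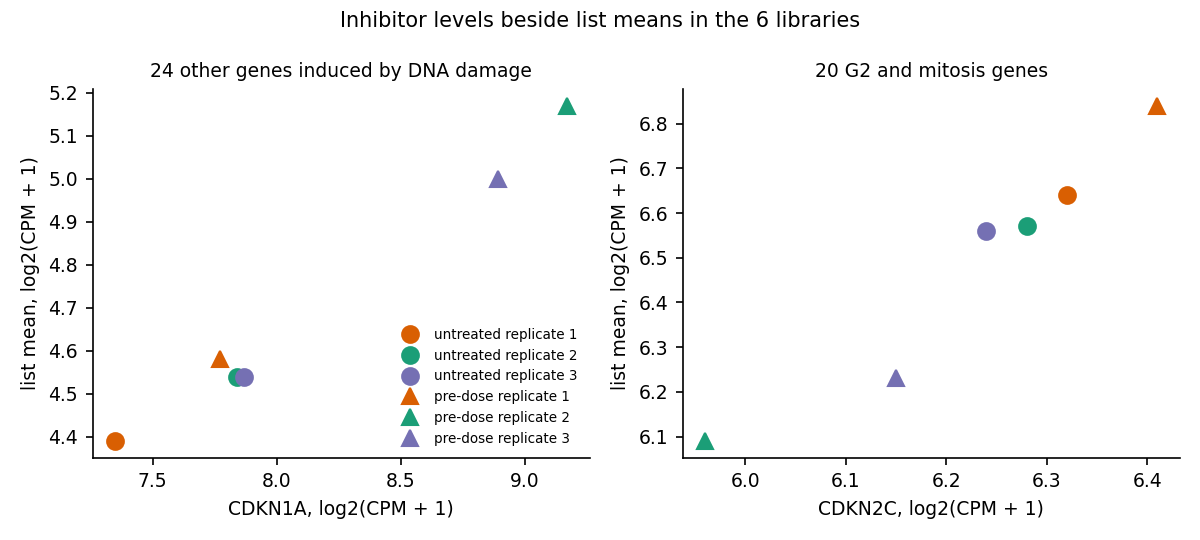
Left, mean log2(CPM + 1) of 24 other genes induced by DNA damage (vertical axis) against CDKN1A; right, mean of 20 G2 and mitosis genes against CDKN2C, with 1 point per library, circles for untreated and triangles for pre-dose, coloured by replicate number. Pre-dose replicates 2 and 3 lie at the upper right on the left and at the lower left on the right, and pre-dose replicate 1 lies beside the untreated libraries on the left and at the upper right on the right.

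The genes most like CDKN1A were taken by Pearson r of log2(CPM + 1) over the 6 libraries, among 2697 genes with a range of at least 0.5. The closest were CYP26B1 (r = 0.997), EDA2R (0.995), PSTPIP2 (0.994), AC025423.2 (0.992), TNFRSF10B (0.992), TRIM22 (0.992), SEPSECS (0.991) and KPNA2P3 (0.991), and 70 genes had an r over 0.95. With 6 libraries that fall apart by replicate, such values are a description and carry no test. EDA2R, a receptor of the TNF receptor family, had 7.89, 10.38 and 10.63 CPM in untreated replicates 1, 2 and 3 and 10.34, 21.60 and 16.93 CPM in pre-dose libraries. TRIM22 had 14.30, 19.65 and 20.08 CPM in untreated and 16.91, 37.05 and 30.52 CPM in pre-dose libraries. Both repeated the shape of CDKN1A, with untreated replicate 1 lowest and pre-dose replicate 2 highest. CYP26B1, which clears retinoic acid, moved over a narrower range, from 14.47 to 21.37 CPM. TNFRSF10B, a TRAIL receptor and member of the list of DNA damage genes, went from 104.6 to 159.5 CPM. AC025423.2 lies inside MDM2 on the same strand, and KPNA2P3 is a pseudogene, so reads of either may come from MDM2 or from KPNA2. Among the other inhibitors the r with CDKN1A was 0.56 for CDKN1B, -0.88 for CDKN2C and -0.85 for CDKN2D.

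**Figure D5:**
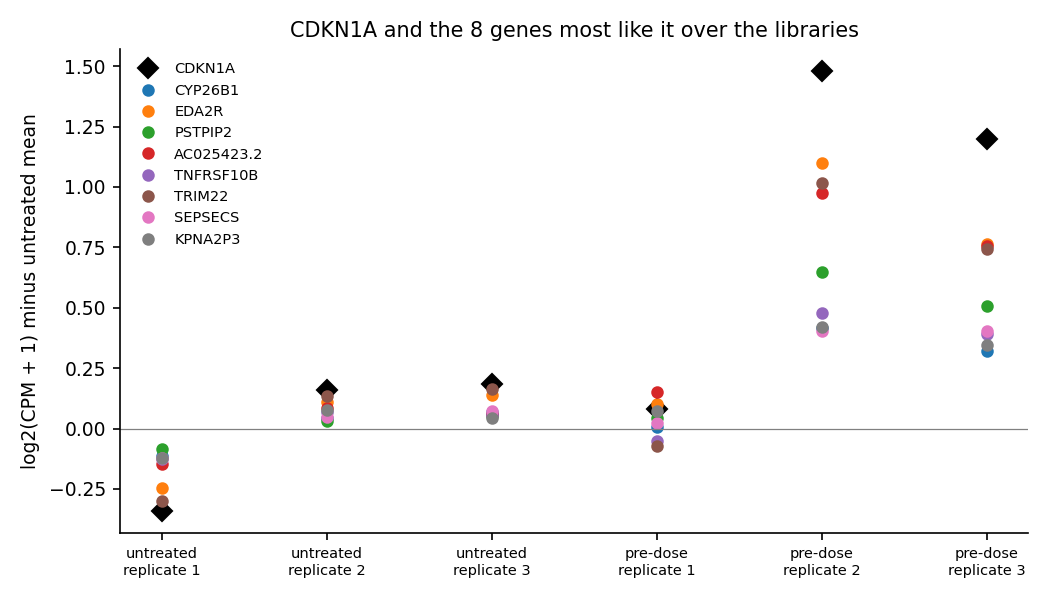
Log2(CPM + 1) minus the untreated mean (vertical axis) in each library for CDKN1A (black diamonds) and the 8 genes with the highest Pearson r to it (coloured circles). All 9 genes are lowest in untreated replicate 1 and highest in pre-dose replicates 2 and 3, with CDKN1A spanning the widest range.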

How the data were processed

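Poly-A RNA of 6 libraries was sequenced as paired reads, per the labels' protocols. The authors deposited 1 table of 13773 rows, and the 77 rows that repeated a gene identifier were dropped. Its expression values are log2 CPM, and when the lowest value of a column is read as 0 reads with 0.5 added, 100% of values under 200 reads fall on hundredths of a read (within 0.05 of a hundredth) and 53.0 to 55.8% are whole, so they are estimated counts deposited by the authors on a log2 scale. Tools named without roles, per the submitters' processing notes, are DRAGEN, bcl2fastq, limma and edgeR, with build hg38. How reads were counted, by which strand, and how genes were filtered is not given in the sources used here. Per the file headers, the same deposited table holds log2 fold changes with limits, p-values raw and adjusted, and moderated statistics (a score). Its differences are printed here with the sign reversed, as pre-dose minus untreated.

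limma-trend (limma 3.58.1, R 4.3.3) was run on log2(CPM + 1) for genes averaging 1 CPM or more. Benjamini-Hochberg adjustment was over all genes, with a threshold of 0.05. A trial on simulated data used a capped spread and no offset of replicate 1, so it does not show how limma performs on these libraries. Fold changes on the log2(CPM + 1) scale understate changes of low genes. Levels per kb used exon lengths of GENCODE release 29, which held 13630 of the identifiers. Exact permutation tests used SciPy 1.17.1, and figures matplotlib 3.10.9. Alternatives were other scales, no filter, voom with and without library weights, a replicate block, replicates 2 and 3 only, and each library left out. Deviations from the group means of same-numbered libraries correlated at 0.66, 0.45 and 0.18 for replicates 1, 2 and 3. Same-numbered libraries were treated as pairs. Yet pre-dose replicate 2 correlated more with untreated replicate 3 (0.51), and pre-dose replicate 3 more with untreated replicate 2 (0.28), than with their own numbers. The labels state no pairing, so the pairs of replicates 2 and 3 rest on their numbers alone. At these totals 3 counts are 0.0944 to 0.114 CPM, for counting error only.

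The members and the gene lists were chosen with earlier results of these data known. Named were all members, from each list the 3 genes with the smallest p in limma and any that the authors' deposited table called where these were 5 or fewer, and the 8 genes most like CDKN1A; further genes (CCND1, CDK4, CDK6, KCTD20 and STK38) were named after their values were seen. A gene of the lists is not reported here. RefSeq promoter windows were matched by symbol for all 4 listed members.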

Additional observations from a re-analysis of the deposited data

How the results depend on the processing

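The count of genes past an adjusted p of 0.05 was 0 with the deposited log2 scale, a pseudocount of 0.25 CPM, no filter, voom, the replicate block and each library left out, and 108 with voom and library quality weights and 866 in replicates 2 and 3 only. Unadjusted p under 0.05 was reached by 280 genes in limma and 1443 with the replicate block. CDKN1A kept its direction in all 13 alternatives and passed in 2 of them, with 1.08 under library quality weights and 1.17 in replicates 2 and 3. With the replicate block its difference was 0.92 (adjusted p = 0.161), and the block changed no call. Leaving out 1 library gave 0.64 (without pre-dose replicate 2) to 1.34 (without pre-dose replicate 1). The sign of CDKN1B turned to 0.02 with library quality weights and to 0.01 in replicates 2 and 3, and leaving out 1 library moved it from -0.04 to 0.04, above 0 without untreated replicate 2 or pre-dose replicate 1. CDKN2C ran from -0.23 to 0.00 and CDKN2D from -0.27 to 0.03, with the sign turned in both without pre-dose replicate 2. The cause of these turns was not tested. The log2 ratio of CDKN1A to the others stayed between 0.64 and 1.47 under the alternatives run. The difference in its share of the summed CPM was 9.56 to 21.02 percentage points with 1 library left out, 18.05 in replicates 2 and 3 and 8.07 over CDKN1A and CDKN1B alone. Of 364 values of the 28 genes named by rule from the lists and by likeness to CDKN1A under these alternatives, 334 kept side and direction and 30 passed in addition, all with library quality weights or in replicates 2 and 3, and 0 turned.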
